A study of Mus musculus with 16 samples.

Results

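Clusters of endothelial cells, named EC_15 and EC_23 by the authors, were described in single-cell RNA sequencing of mouse brown adipose tissue. They were taken as all cells that carry either name in the deposited table of named cells, which gave 698 cells in EC_15 and 322 in EC_23. These 1020 cells were 34.2% of the 2983 cells with a name starting in EC_, 4.19% of the 24352 named cells and 0.930% of all 109723 cells.

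The cells came from the stromal vascular fraction of the interscapular fat of C57BL6J mice, meaning the cells left after digestion once fat cells, red blood cells and dead cells had been taken away. Mice were kept at 30 °C (thermoneutral, TN), at 22 °C (room temperature, RT), or at 5 °C for 2 days or for 7 days (2-day cold and 7-day cold), with 4 libraries per housing. The study asked how the cell makeup of the tissue changes as it remodels in the cold. The labels give no genotype or transgene, and no age or sex was used; the sources differ on whether 1 week of housing belonged to TN or to RT.

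Brown fat burns fuel to make heat and is among the most densely vascularised tissues. Its endothelial cells line the capillaries that bring oxygen, glucose and lipids to the adipocytes and carry the heat away, and its capillary bed is known to grow in the cold under signals such as VEGF. Endothelial cells are usually recognised by Pecam1, an adhesion molecule of the cell junction, Cdh5, the cadherin of endothelial junctions, and Cldn5, a tight junction protein. Gene values were not analysed here, so the EC names were taken from the authors and not checked against these genes, and no statement is made on whether the clusters are arterial, capillary or venous.

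Named cells were present in 15 libraries, since replicate 1 of 2-day cold had none among its 10001 cells; values for 2-day cold therefore rest on 3 libraries. Libraries held 1473 to 10005 cells, 357 to 3739 named cells and 55 to 472 EC cells. The lowest UMI count (unique molecular identifiers, the count of RNA molecules read) of a cell was 800 to 809 in 11 of these libraries, and 1031, 1459, 1850 and 1921 in RT replicate 3, 2-day cold replicate 4, TN replicate 1 and TN replicate 3. Of the member cells, 28 (2.75%) had a cell barcode that also occurred in another library. The labels do not say that the libraries of a group came from separate animals, so p-values measure the spread between libraries, which may be technical.

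EC_15 and EC_23 shared a low RNA content and differed in their mitochondrial share. An EC_15 cell had a median of 3099.5 UMIs, 1519.5 detected genes and 1.90% mitochondrial UMIs. An EC_23 cell had a median of 2572.5 UMIs, 1030 genes and 9.37% mitochondrial UMIs. The other EC cells had medians of 8350 UMIs, 2809 genes and 3.27%, so both clusters lay below them in depth, EC_15 also below them in mitochondrial share and EC_23 above. Among those cells, EC_10 was shallowest (4995 UMIs, 1982 genes) and EC_11 deepest (12804 UMIs, 3650 genes). These are descriptions of clusters built from the same cells and carry no test.

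The order held from library to library. The library median of EC_15 was below that of the other EC cells for UMIs, genes and mitochondrial share in 15 of 15 libraries. Against EC_10 alone, it was lower in 14 of 15 libraries for UMIs and in 12 for genes. EC_23 was compared in the 11 libraries with at least 10 of its cells, and its mitochondrial share was above that of EC_15 and of the other EC cells in 11 of 11. Its gene number was below that of EC_15 in 10 of 11, while its UMI number was below in 6 and above in 5. Among cells of 2000 to 3000 UMIs, the 192 EC_15 cells had a median of 1275.5 genes and the 66 EC_23 cells 1013.5, with 1131 to 1241 in EC_10, EC_11 and EC_28. EC_23 thus had fewer genes per cell also at matched UMI numbers, and a median mitochondrial share of 10.5% there against 1.76% in EC_15.

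**Figure D1:**
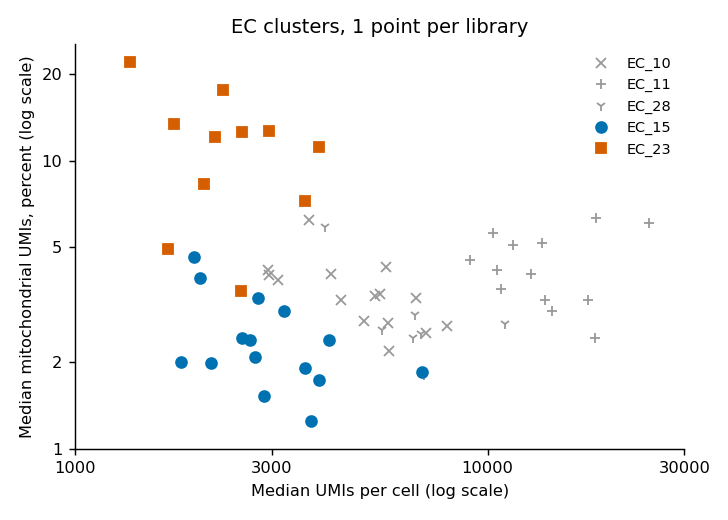
Median UMIs per cell (x axis, log scale) against the median percent of mitochondrial UMIs (y axis, log scale), with 1 point per library and cluster for libraries with at least 10 cells of the cluster; EC_32 is not drawn. EC_15 (blue) lies at few UMIs and a low mitochondrial share, EC_23 (orange) at few UMIs and, in all libraries but replicates 2 and 3 of 2-day cold (3.53% and 4.92%), at 7.27% or more.

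Cells with at least 20% mitochondrial UMIs numbered 31 of the 322 EC_23 cells (9.63%), 1 of the 698 EC_15 cells (0.143%) and 10 of the 1963 other EC cells (0.509%). In 7-day cold, 2 of 5, 7 of 12, 0 of 2 and 1 of 7 EC_23 cells in replicates 1 to 4 reached that share. Dead cells had been depleted on a column before loading, a step that can set the share of such cells; its part in the values was not tested.

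Both clusters could be followed through the authors' clusterings, in which a higher resolution splits cells more finely. In the table of named cells, the names follow resolution 1.2. EC_23 was joined with EC_11 and EC_15 at resolution 0.6 and stood alone from 0.8 upwards, where 322 of the 325 cells of its cluster were EC_23. EC_15 was still joined with EC_11 at 0.8 and at 1, with 689 EC_15 and 835 EC_11 cells in 1 cluster at resolution 1, and at 1.4 formed a cluster of 693 cells that held no other name.

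The clustering of all 109723 cells placed the clusters differently. At its resolution 1.8, 651 EC_15 cells (93.3%) lay in cluster 18 together with 813 EC_10 cells (93.8% of EC_10). Of the EC_23 cells, 264 (82.0%) lay in cluster 22 together with 757 EC_11 cells (90.2% of EC_11). EC_15 was therefore grouped with EC_11 in the coarser clusterings of named cells and with EC_10 among all cells, and no resolution of the table of all cells held EC_15 or EC_23 as a cluster of its own.

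The placement of EC_23 differed with housing, a pattern noticed after the values had been seen and given here with no test. In cluster 22 lay 102 of 115 EC_23 cells in TN (88.7%, 95% Wilson interval 81.6 to 93.3), 113 of 127 in RT (89.0%, 82.4 to 93.3), 43 of 54 in 2-day cold (79.6%, 67.1 to 88.2) and 6 of 26 in 7-day cold (23.1%, 11.03 to 42.05). Wilson intervals here and below cover counting error only. By library, the 7-day values were 0 of 5, 5 of 12, 0 of 2 and 1 of 7 cells, and the lowest value in any of the other 11 libraries was 71.4% (10 of 14, in 2-day cold replicate 4). The groups did not overlap, on 2 to 12 cells per 7-day library.

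The 20 EC_23 cells of 7-day cold outside cluster 22 were spread: 9 lay in cluster 18, 5 in cluster 13, where AP_8 was the most common name, 4 in cluster 24, where VSM-AP_6 was, and 2 in cluster 40. Counting cells under 20% mitochondrial UMIs alone, 4 of 16 were in cluster 22 in 7-day cold, 42 of 50 in 2-day cold, 104 of 116 in RT and 100 of 109 in TN. For EC_15 the share in cluster 18 was 91.5% in TN, 93.0% in RT, 93.8% in 2-day cold and 95.04% in 7-day cold, and 80% to 100% in single libraries. Values for EC_23 in 7-day cold rest on these 26 cells, of which the table of all cells puts 6 with the bulk of EC_23.

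**Figure D2:**
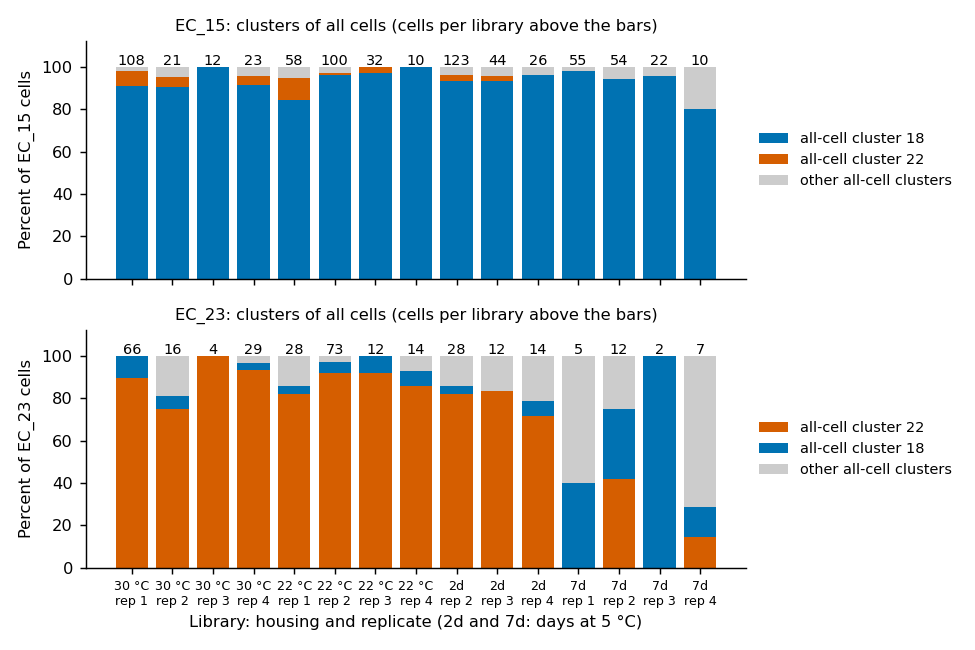
Percent of EC_15 cells (top) and EC_23 cells (bottom) of each library that lie in the clusters 18 and 22 of the table of all cells or in its other clusters, with the number of cells above each bar. EC_15 lies in cluster 18 by 80% or more in each of the 15 libraries, and EC_23 in cluster 22 by 71.4% or more in 11 libraries and by 0% to 41.7% in the 4 libraries of 7-day cold.

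The share of the EC cells that were EC_15 was highest on average in 7-day cold, without passing the test. It was 22.9%, 29.2%, 12.6% and 13.2% in TN replicates 1 to 4 and 19.2%, 23.9%, 20.1% and 16.4% in RT replicates 1 to 4. It was 34.8%, 18.1% and 13.8% in 2-day cold replicates 2 to 4, and 34.8%, 38.3%, 24.4% and 18.2% in 7-day cold replicates 1 to 4. The ranges of all 4 housings overlapped. Means were 19.5% ± 7.99 (SD, n = 4), 19.9% ± 3.09 (n = 4), 22.2% ± 11.1 (n = 3) and 28.9% ± 9.28 (n = 4) in that order.

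The share in EC_23 was lower on average in both cold groups. It was 14.0%, 22.2%, 4.21% and 16.7% in TN and 9.27%, 17.4%, 7.55% and 22.95% in RT. In 2-day cold it was 7.93%, 4.94% and 7.41%, and in 7-day cold 3.16%, 8.51%, 2.22% and 12.7%. The groups overlapped: TN replicate 3, with 4 EC_23 cells, lay below all 3 libraries of 2-day cold, and RT replicate 3 below replicate 2 of both cold groups. 7-day cold replicate 4, with 7 EC_23 cells, lay above TN replicate 3 and RT replicates 1 and 3. Means were 14.3% ± 7.53 (SD, n = 4), 14.3% ± 7.20 (n = 4), 6.76% ± 1.60 (n = 3) and 6.66% ± 4.91 (n = 4).

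**Figure D3:**
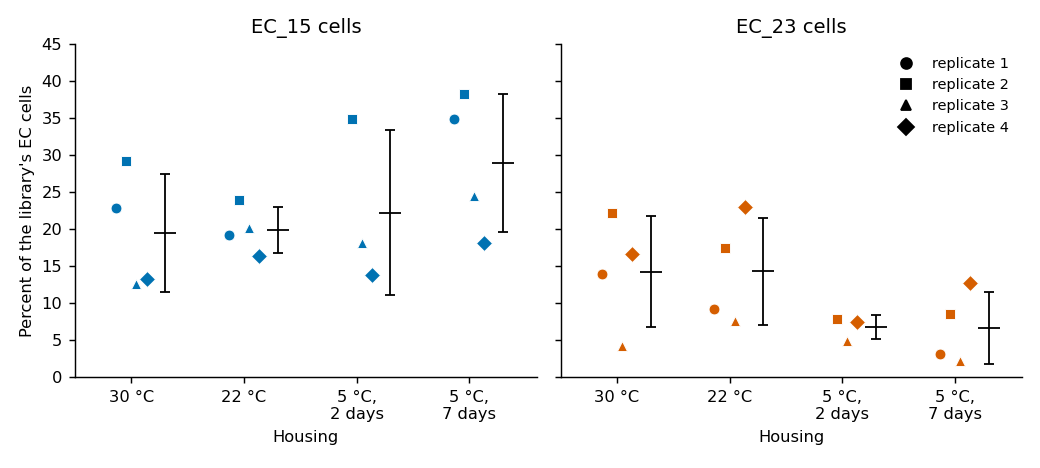
Share of each library's EC cells in EC_15 (left) and EC_23 (right), in percent, by housing; each symbol is 1 library and marks its replicate number, and bars give the mean ± SD. EC_15 averages 28.9% in 7-day cold against 19.5% in TN, EC_23 6.66% against 14.3%, and the ranges overlap in both.

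Log2 odds of the share were compared with limma, fitted without the replicate number, and no change of EC_15 or EC_23 passed an adjusted p of 0.05 in any of the 6 comparisons of housings. Some passed once that number was added as a block, as given in the last section, and the values here are without it. Between 7-day cold and TN the log2 odds ratio was 0.78 ± 0.58 (SE) for EC_15, with an adjusted p of 0.230. It was -1.24 ± 0.58 for EC_23, with an adjusted p of 0.0619 and an unadjusted p of 0.0371. The fit pooled the spread over all 5 EC clusters tested (55 degrees of freedom), so the SE is not that of a single cluster. The residual SD was 0.65 in EC_15 and 0.97 in EC_23. Exact permutation tests gave p = 0.171 for EC_15 and for EC_23 (adjusted p = 0.214 for both). In this comparison 2 of the 5 EC clusters tested passed (40%), namely EC_10 as higher (1.66, adjusted p = 0.0153) and EC_11 as lower (-2.17, adjusted p = 0.00226). Shares of one library add up to a whole, so a rise in one cluster lowers the others, and the 5 tests depend on each other.

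Against RT, 7-day cold gave 0.67 ± 0.58 for EC_15 (limma, adjusted p = 0.253) and -1.31 ± 0.58 for EC_23 (adjusted p = 0.0717, unadjusted 0.0287), with 0 of 5 clusters called (0%). Between 2-day cold and TN the values were 0.21 ± 0.63 and -1.02 ± 0.63 (limma, adjusted p = 0.737 and 0.187; 0% called). Between 2-day cold and RT they were 0.10 ± 0.63 and -1.08 ± 0.63 (limma, adjusted p = 0.871 and 0.230), and 1 of 5 clusters was called (20%), EC_28 as higher. Between RT and TN they were 0.11 ± 0.58 and 0.06 ± 0.58 (limma, adjusted p = 0.912 for both; 0% called), and between both cold groups 0.57 ± 0.63 and -0.23 ± 0.63 (limma, adjusted p = 0.461 and 0.717; 0% called). EC_32, with 62 cells, was under the minimum of a mean of 10 cells per library.

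In this limma fit with a pooled spread, the result for EC_23 lay near the threshold. Leaving out 1 library at a time gave limma adjusted p-values of 0.00887 to 0.227 for 7-day cold against TN, below 0.05 without TN replicate 3, RT replicate 4, 7-day cold replicate 2 or 7-day cold replicate 4. Taking replicates 1 and 2 alone, the log2 odds ratio was -1.89 for EC_23 and 0.71 for EC_15. Taking replicates 3 and 4 alone, it was -0.60 and 0.85. With the replicate number as a block, both clusters passed for 7-day cold against TN and against RT, with values given in the last section.

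The UMI floor differed between libraries. In the 11 libraries whose lowest UMI count was under 1000, 105 of 226 EC_23 cells (46.5%) and 104 of 520 EC_15 cells (20%) lay under 1921 UMIs, the highest floor of any library. With only cells of at least 1921 UMIs, an alternative added after the data had been seen, EC_23 was 11.4% ± 4.82 of EC cells in TN (SD, n = 4), 11.2% ± 7.45 in RT (n = 4), 4.78% ± 2.05 in 2-day cold (n = 3) and 4.33% ± 4.24 in 7-day cold (n = 4). The limma log2 odds ratio was then -1.59 against TN (adjusted p = 0.0174) and -1.49 against RT (adjusted p = 0.0460). That floor left 2, 4, 1 and 4 EC_23 cells in 7-day cold replicates 1 to 4. With cells under 20% mitochondrial UMIs the log2 odds ratio was -1.63 against TN (limma, adjusted p = 0.00892) and -1.58 against RT (adjusted p = 0.0183). This selection kept 16 of 26 EC_23 cells in 7-day cold, 116 of 127 in RT and 109 of 115 in TN. It thus took away a larger part of EC_23 in 7-day cold, which by itself lowers the share there. EC_15 did not pass in either selection.

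The sum of both clusters was 33.8% ± 14.4 of EC cells in TN (SD, n = 4), 34.2% ± 7.12 in RT (n = 4), 29.0% ± 11.97 in 2-day cold (n = 3) and 35.6% ± 8.81 in 7-day cold (n = 4). Their ratio, which depends on no other cluster, was 1.63, 1.30, 2.78 and 0.797 EC_15 cells per EC_23 cell in TN and 2.05, 1.37, 2.60 and 0.724 in RT, with 0.5 cells added to each number. In 2-day cold it was 4.33, 3.56 and 1.83, and in 7-day cold 10.1, 4.36, 9 and 1.4. In 3 of the 4 libraries of 7-day cold it was above every library of TN and RT, and replicate 4 lay among them.

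The geometric mean ratio was 1.47 in TN, 1.52 in RT, 3.04 in 2-day cold and 4.85 in 7-day cold. The log2 ratio was 0.56 ± 0.75 (SD, n = 4), 0.60 ± 0.81 (n = 4), 1.61 ± 0.65 (n = 3) and 2.28 ± 1.31 (n = 4). Between 7-day cold and TN the difference was 1.72 (two-sided exact permutation p = 0.0857, adjusted p = 0.229 over 6 pairs) and between 7-day cold and RT 1.68 (exact p = 0.0857, adjusted p = 0.229). The smallest p that 4 libraries against 4 can give is 0.0286. The other 4 pairs had exact p-values of 0.114 to 0.971, so no pair passed. Leaving out 7-day cold replicate 4, the differences were 2.32 against TN and 2.28 against RT (exact permutation p = 0.0286 and adjusted p = 0.0857 for both).

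**Figure D4:**
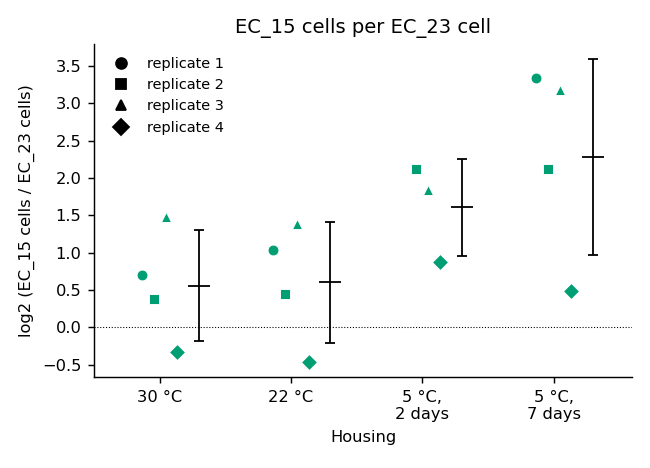
Log2 of the number of EC_15 cells over the number of EC_23 cells in each library, with 0.5 cells added to each, by housing; symbols mark replicate numbers, bars give the mean ± SD, and the dotted line marks equal numbers. Means are 0.56 in TN and 2.28 in 7-day cold, while replicate 4 of 7-day cold (0.49) lies within the range of TN and RT.

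Against all named cells, EC_15 was again higher on average in 7-day cold than in TN. Its share was 2.15% ± 1.52 in TN (SD, n = 4), 2.79% ± 0.794 in RT (n = 4), 2.99% ± 1.83 in 2-day cold (n = 3) and 4.45% ± 2.09 in 7-day cold (n = 4). The log2 odds ratio of 7-day cold against TN was 1.27 ± 0.61 (limma, adjusted p = 0.0943), where 10 of 27 named clusters passed (37%). Its share among EC cells was higher in both of the replicates 1 and 2 than in both of the replicates 3 and 4 in TN and in 7-day cold. This did not hold in RT, where replicate 3 (20.1%) lay above replicate 1 (19.2%). A fit with a covariate for that split and named cells as the whole was added after the data had been seen. In it EC_15 gave 1.27 ± 0.41 (limma, adjusted p = 0.0217), and 17 of 27 clusters passed (63%). The residual SD of EC_15 was 0.50 with the covariate and 0.87 without it. Against RT, that fit called 8 of 27 clusters (29.6%), with neither member among them. The labels name no batch. EC_23 did not pass against named cells in either fit, at -0.50 ± 0.71 (limma, adjusted p = 0.539) and -0.50 ± 0.67 (adjusted p = 0.508).

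Within EC_15, no comparison of depth or mitochondrial share between housings passed in exact permutation tests. Median UMIs were 4298 ± 1870 in TN (SD, n = 4), 2630 ± 974 in RT (n = 4), 3040 ± 597 in 2-day cold (n = 3) and 2526 ± 562 in 7-day cold (n = 4). Median mitochondrial shares were 2.14% ± 0.301, 2.47% ± 1.46, 1.90% ± 0.590 and 3.06% ± 0.803. TN replicates 1 and 3 held no cell below 1850 and 1921 UMIs, while 7-day cold libraries reached down to 800 to 808. Such floors can raise medians of UMIs and genes, but their part in the TN values was not tested. TN replicates 2 and 4 had floors of 809 and 801, and replicate 2 had the highest EC_15 median, at 6926 UMIs. Depth was not compared above a common floor. Of the 18 comparisons of UMIs, genes and mitochondrial share in EC_15, the lowest two-sided exact permutation p was 0.0857, for 7-day cold against TN in all 3 measures. The difference in median UMIs was -1772, but -896 without TN replicate 2 and -2970 with means in place of medians (exact permutation p = 0.0286, adjusted p = 0.206). In 7-day cold the mitochondrial share was 3.02%, 3.34%, 3.91% and 1.99% by replicate, against 1.85% to 2.42% in TN. In limma over the 6 named clusters with at least 10 cells in every library, a fit added after the data had been seen, none of these comparisons of EC_15 passed. With a covariate for replicates 1 and 2 against 3 and 4, log2 genes in EC_15 differed by -0.43 between 7-day cold and TN (limma, adjusted p = 0.0301). In that comparison 5 of 6 clusters were called (83.3%), 3 as higher and 2 as lower. Between RT and TN, log2 genes in EC_15 differed by -0.49 (limma, adjusted p = 0.0355, 1 of 6 called, 16.7%). Log2 mitochondrial share in EC_15 differed by 0.77 between 7-day and 2-day cold (limma, adjusted p = 0.0271, 4 of 6 called, 66.7%). Median UMIs of EC_15 also passed with this covariate for 7-day cold against TN, as lower, with values in the last section.

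In EC_23, 7-day cold had 1 library with at least 10 cells, replicate 2, with a median of 1356.5 UMIs, 572.5 genes and 22.0% mitochondrial UMIs, and was therefore not tested. Median genes were 1238 ± 299 in 2-day cold (SD, n = 3) and 927 ± 31.2 in RT (n = 4), without overlap (two-sided exact permutation p = 0.0286, the smallest possible; adjusted p = 0.343 over 36 tests). The difference was 311 genes, and 156 to 454 with 1 library left out, the lowest without 2-day cold replicate 4. The median mitochondrial share was 11.1% ± 3.37 in TN (n = 3), 12.6% ± 3.84 in RT (n = 4) and 6.54% ± 4.07 in 2-day cold (n = 3), and did not pass. None of the 36 comparisons of depth, mitochondrial share and phase calls in both clusters passed after adjustment, and 3 had an unadjusted exact p below 0.05.

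The other 2 of these 3 concerned the cell cycle phase that the authors called for each cell from scores of S and G2M genes. In EC_15 the share called S or G2M was 75%, 85.7%, 75% and 73.9% in TN and 72.4%, 75%, 81.3% and 50% in RT. It was 73.2%, 70.5% and 88.5% in 2-day cold and 49.1%, 55.6%, 54.5% and 50% in 7-day cold. The 7-day libraries did not overlap with TN or 2-day cold, and RT replicate 4 lay among them. Some of these shares rest on few cells. They were 5 of 10 cells in 7-day cold replicate 4 and in RT replicate 4, 9 of 12 in TN replicate 3 and 18 of 21 in TN replicate 2.

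Means were 77.4% ± 5.56 in TN (SD, n = 4), 69.7% ± 13.6 in RT (n = 4), 77.4% ± 9.71 in 2-day cold (n = 3) and 52.3% ± 3.23 in 7-day cold (n = 4). The difference of 7-day cold was -25.1 percentage points against TN and also against 2-day cold (two-sided exact permutation p = 0.0286 for both, the smallest possible; adjusted p = 0.343). Against RT it was -17.4 (exact p = 0.114, adjusted p = 0.514). S calls made up 44.9% ± 5.00 of EC_15 cells in TN and 32.4% ± 4.44 in 7-day cold, and G2M calls 32.5% ± 8.52 and 19.8% ± 2.48.

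In a limma fit added after the data had been seen, over the 6 named clusters with at least 10 cells in every library, the EC_15 share fell in 7-day cold by 1.58 in log2 odds against TN (adjusted p = 0.00167), by 1.11 against RT (adjusted p = 0.0157) and by 1.67 against 2-day cold (adjusted p = 0.00413). So did most of the clusters in it: 5 of 6 passed against TN (83.3%), 4 of 6 against RT (66.7%) and 4 of 6 against 2-day cold (66.7%), all as lower. Without RT replicate 3 the adjusted p of the limma comparison with RT was 0.0695.

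The size of the phase difference changed with the UMI range and with the table used. Among EC_15 cells of 2000 to 5000 UMIs the share was 67.7% ± 2.48 in TN (SD, n = 4), 76.8% ± 4.37 in RT (n = 3), 77.4% ± 12.4 in 2-day cold (n = 3) and 60.7% ± 4.17 in 7-day cold (n = 4). The difference of 7-day cold from TN was then -7.06 points (exact permutation p = 0.114), and from RT and 2-day cold -16.2 and -16.8 (exact p = 0.0286 for both). With the calls of the table of all cells, the shares were 24.2% ± 7.38, 33.5% ± 11.8, 42.2% ± 17.3 and 19.2% ± 7.52, and 7-day cold differed from TN by -4.98 (exact permutation p = 0.314). The tables gave the same call for 56.5% of EC_15 cells and 58.7% of EC_23 cells.

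Set against the other EC cells of the same library, the EC_15 share was higher by 0.92 points on average in TN and stood at -9.17 points in 7-day cold, a change of -10.1 (two-sided exact permutation p = 0.171). The other EC cells also differed in makeup, with EC_11 at 36.65% of EC cells in TN and 11.45% in 7-day cold. No cycling is read from these calls, since genes of the cycle were not analysed here and the tables disagree in the share called. The part of depth and of free RNA in the calls was not tested.

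**Figure D5:**
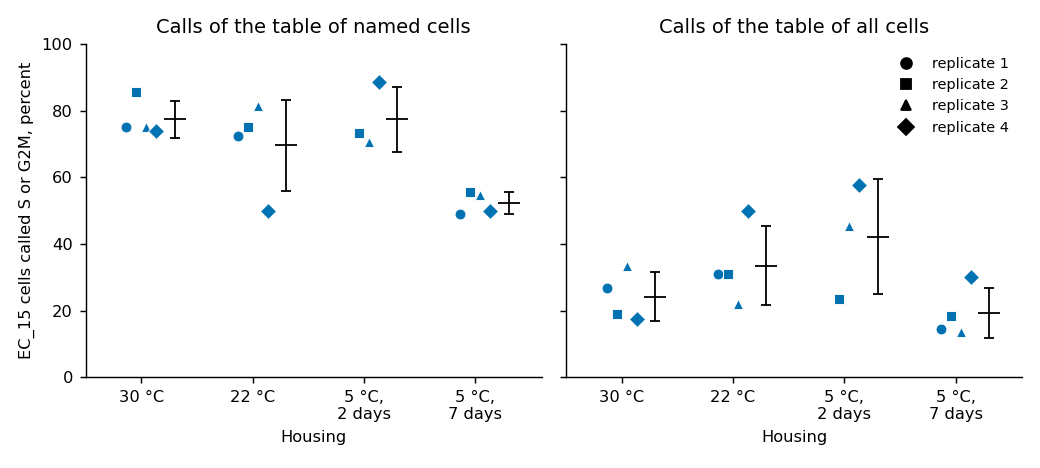
Percent of EC_15 cells called S or G2M in each library by housing, with the calls of the table of named cells (left) and of the table of all cells (right); symbols mark replicate numbers and bars give the mean ± SD. On the left the 7-day cold libraries (49.1% to 55.6%) lie below every TN library (73.9% to 85.7%), and on the right both ranges overlap (13.6% to 30% and 17.4% to 33.3%).

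In EC_23 the share called S or G2M was 66.7% ± 5.13 in TN (SD, n = 3), 61.4% ± 10.8 in RT (n = 4) and 71.8% ± 13.4 in 2-day cold (n = 3), with two-sided exact permutation p-values of 0.257 to 0.6. The single 7-day library with at least 10 cells had 50%.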

How the data were processed

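Per the labels' protocols, interscapular fat was dissociated enzymatically, floating adipocytes, erythrocytes and dead cells were taken away, and libraries were made with a Chromium Single Cell 3′ v3 kit. The submitters' processing notes name the mm10 build, STAR and Cell Ranger 3.0.1; how cells were filtered, integrated and clustered is not given in the sources used here. Each cell had at least 800 UMIs and 400 genes. The authors deposited raw counts of UMIs and genes for each cell. The authors deposited the mitochondrial share as a fraction, given here in percent. Phase scores (S score and G2M score) and calls were deposited by the authors, separately in the table of all cells and in the table of named cells. Gene values were not analysed here, doublets were not called, and cells could not be thinned to equal UMIs.

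The library was the unit of replication. Shares of EC cells, after adding 0.5 cells to a cluster and to its remainder, were fitted as log2 odds with limma 3.58.1 in R 4.3.3, with all groups in 1 fit and clusters averaging 10 or more cells per library. Ratios, and medians and phase shares of libraries with at least 10 cells of a cluster, were compared with exact permutation tests (scipy 1.17.1). Tests were two-sided, with Benjamini-Hochberg adjustment and a threshold of 0.05; edgeR 4.0.16 on cell numbers was an alternative. The limma step was tested on simulated data, in which clusters were drawn independently with 1 common spread. Real shares add up to a whole and differ in spread, which that simulation did not cover. Alternatives covered the scale, the test, the cells kept, the whole against which a share is taken, and each library left out; the fit over named clusters, the UMI window, the common UMI floor, cells under 5% mitochondrial UMIs, and the covariate with named cells were added after the data had been seen. The members were chosen with earlier results of these data known. By rule, EC_15 and EC_23 were named throughout, the other EC clusters where shares of EC cells were compared, and any other cluster where at least 1 in 20 cells of a member lay in it; AP_8 and VSM-AP_6 were named after their values were seen. No pair of libraries of a group agreed within sampling noise over the named clusters (their chi-square statistic was at least 4.13 per degree of freedom). Over the EC clusters alone, the lowest values were 0.842 (7-day cold replicates 3 and 4), 1.72 (7-day cold replicates 1 and 3), 1.74 (2-day cold replicates 3 and 4) and 1.81 (TN replicates 1 and 2). No p-value was taken for these, so more than 1 pair may lie within sampling noise. Clusters under 10 cells in a pair were left out, among them EC_23 in 7-day cold replicates 3 and 4 (2 and 7 cells). All were kept as separate libraries since every pair differed over the named clusters (8.26 for 7-day cold replicates 3 and 4).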

Additional observations from a re-analysis of the deposited data

Results flagged for a closer look

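Of 39 groups of 4 library values checked for a library far from the other 3, 4 held one; chance flags about 1 in 20 groups. RT replicate 4 had a median of 4.64% mitochondrial UMIs in EC_15, on 10 cells, against 1.53% to 2.00% in the other RT libraries. TN replicate 2 had 85.7% of its EC_15 cells called S or G2M, on 21 cells, against 73.9% to 75% in the other TN libraries, and the highest EC_15 depth of any library, with a median of 6926 UMIs. 7-day cold replicate 4 had a mean G2M score of 0.0036 in EC_15, on 10 cells, against -0.0294 to -0.0276 in the other 7-day libraries. RT replicate 3 had a median of 880.5 genes in EC_23, on 12 cells, against 940 to 945.5 in the other RT libraries.

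Replicate 1 of 2-day cold, which holds no named cell, had 285 cells in cluster 18 of the table of all cells, the cluster that holds 93.3% of EC_15. They were 2.85% of its 10001 cells, above the highest TN library, at 2.04%, and below RT replicates 1 and 2 (4.19% and 2.92%) and 7-day cold replicate 2 (3.13%). In cluster 22, which holds 82.0% of EC_23 and more cells of EC_11, it had 261 cells (2.61%). That was above replicates 2 to 4 of 2-day cold (1.31%, 0.85% and 0.49%) and of TN (2.04%, 0.42% and 1.52%). It was also above RT replicates 3 and 4 and all of 7-day cold (0.08% to 0.88%). It was below TN replicate 1 (2.68%) and RT replicates 1 and 2 (5.88% and 2.89%). How many of these cells were EC_23 is not known, so the EC_23 share of 2-day cold could not be checked in this library. The median mitochondrial share of this library was 29.1%, and the cells were left out of every comparison.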

How the results depend on the processing

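All values for shares are log2 odds ratios and adjusted p-values are from limma unless another tool is named. Between 7-day cold and TN, EC_15 passed with edgeR after TMM scaling (0.84, adjusted p = 0.0195), with the covariate for replicates 1 and 2 against 3 and 4 (0.78, adjusted p = 0.0418) and, against named cells, with that covariate (1.27). EC_23 passed with edgeR without scaling (-1.20, adjusted p = 0.0327), with cells under 20% mitochondrial UMIs (-1.63), below their library's median UMIs (-1.57, adjusted p = 0.0294) or above the common UMI floor (-1.59), and with libraries weighted by EC cells (-1.48, adjusted p = 0.0222). Against RT, EC_23 passed with cells under 20% mitochondrial UMIs (-1.58), below the median UMIs (-1.48, adjusted p = 0.0446), above the floor (-1.49) and with weights (-1.40, adjusted p = 0.0274). EC_23 passed neither comparison with centred log ratios, arcsine values, TMM scaling or the exact permutation test. At or above the median UMIs EC_23 had too few cells to be tested.

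The labels name no pairing, so the main fit left the replicate numbers out. Of 21 pairs with the same number, 16 had r over 0.1 over EC clusters and 12 over named clusters (-0.30 to 0.66). Pairs with different numbers were not counted, so these counts have nothing to be set against. The r over EC clusters rests on 5 clusters. Over named clusters, 7 of 15 libraries matched their own number best, and the number expected by chance was not computed. Over EC clusters r was 0.625 to 0.914 within replicate 3, while TN and 7-day cold replicate 1 had -0.462. A shared effect of the replicate number on the EC clusters was not tested. Over EC clusters, every pair of TN with 2-day cold and of both cold groups was over 0.1; the block changed no call there. With the replicate number as a block, EC_15 gave 0.78 (adjusted p = 0.0206) for 7-day cold against TN and 0.67 (0.0424) against RT, and EC_23 -1.24 (0.00953), -1.31 (0.0146) and, for 2-day cold against RT, -1.22 (0.0297). The block raised the EC clusters called between 7-day cold and TN from 2 to 4 and against RT from 0 to 4; over all settings these counts ranged from 0 to 4 in both, and from 0 to 2 between 2-day cold and RT, with 1 as reported.

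Every reversal concerned a difference that had not passed its test. Between RT and TN, EC_15 gave -1.03 at or above the median UMIs and -0.17 above the floor; EC_23 gave -0.057 with edgeR without scaling, -0.055 under 20% mitochondrial UMIs, -0.10 below the median UMIs, -0.10 above the floor and -0.083 with weights. Between 2-day cold and TN, EC_15 gave -1.04 at or above the median UMIs. Between 2-day cold and RT it gave -0.14 with centred log ratios, -0.0093 at or above the median UMIs, -0.071 against named cells and -0.57 against all cells. Within replicates 1 and 2 it gave 0.97, where 2-day cold is the single library of replicate 2. Against all cells it gave -0.24 for 7-day cold against RT, and EC_23 gave 0.0096 with centred log ratios between both cold groups. The cause was not tested.

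For the share of EC_15 called S or G2M, 2-day cold against TN gave 0.0095 as the mean S score, 18.1 points with the calls of all cells, 9.70 in the UMI window, and 0.091, 0.12 and 0.069 in log2 odds with limma over named clusters alone, with the covariate and with the block. RT against TN gave 9.32 with the calls of all cells and 9.11 in the window, where the main comparison gave -7.74. In the window the RT libraries (73.7% to 81.8%) did not overlap with TN (66.1% to 71.4%; exact permutation p = 0.0286, the smallest possible). With limma over named clusters, 7-day cold gave -1.58 against TN and -1.11 against RT alone, with the covariate and with the block, and against 2-day cold -1.67 alone, -1.70 with the covariate and -1.65 with the block. EC_15 median UMIs in 7-day cold against TN were -0.70 in log2 with the covariate (limma, adjusted p = 0.0275) and with the block (limma, adjusted p = 0.0373), and 2343 higher as a difference from the other EC cells. Those other cells differed in makeup: EC_11 averaged 36.65% of EC cells in TN and 11.45% in 7-day cold, EC_10 23.09% and 47.27%. The part of this makeup, and of the higher UMI floors in TN, was not tested.

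With 1 library left out, the EC_15 share ranged from -0.10 to 0.39 for RT against TN, -0.29 to 0.58 for 2-day cold against TN -0.40 to 0.47 for 2-day cold against RT and 0.21 to 1.07 between both cold groups (lowest and highest without 2-day cold replicates 4 and 2); the EC_23 share from -0.46 to 0.39 for RT against TN, -1.54 to -0.69 for 2-day cold against TN (lowest without TN replicate 3), -1.77 to -0.86 for 7-day cold against TN, -1.75 to -0.93 against RT (past 0.05 without RT replicate 3 or 7-day cold replicate 4) and -0.67 to 0.15 between both cold groups. The log2 ratio of EC_15 to EC_23 cells ranged from -0.25 to 0.40 for RT against TN, and the phase difference of 2-day cold against TN from -5.59 to 3.41 points. Numbers of 2 to 12 EC_23 cells per library limit what 7-day cold can show.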
